A study of Mus musculus with 28 samples.

Results

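The 9 genes described here encode the receptor chains, kinases and transcription factors through which macrophages read IFN-γ and IL-10: the IFN-γ receptor chains Ifngr1 and Ifngr2, the IL-10 receptor chains Il10ra and Il10rb, the Janus kinases Jak1, Jak2 and Tyk2, and the transcription factors Stat2 and Stat3. They were taken as a named list, by Ensembl gene ID matched to symbol, from the 55487 genes of each file, and all 9 were among the 13631 genes that passed the filter on low values (at least 1 TPM in at least 4 libraries). RNA was sequenced from 28 libraries of wild-type mouse bone marrow derived macrophages in 7 groups of 4. One group, M0, was cultured for 48 h under non-polarizing conditions without an added cytokine. The other 6 were cultured for 48 h with 50 ng/mL of IFN-γ or of IL-10, and for each cytokine macrophages were sorted into those that had engulfed dying regulatory T cells (Treg-phagocytic), those that had engulfed dying conventional CD4+ T cells (Tconv-phagocytic) and those that had engulfed no labelled cell (non-phagocytic). The T cells had been driven into apoptosis with ATP or NAD+ and stained with a fluorescent antibody to CD4, in either of a pair of dyes, BV421 and Ax647. The M0 labels name no T cells and no uptake status, so in any comparison with M0 the cytokine, the co-culture and the sort cannot be told apart. Phagocytic and non-phagocytic macrophages were separated by a sort. Changes made by engulfing, differences present beforehand and RNA of the engulfed cells therefore cannot be told apart between them. Uptake below names the sorted group. The labels do not say whether the 4 libraries of a group came from separate animals or cultures, so p-values measure only the spread between these libraries, which may be technical.

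IFN-γ binds a receptor of IFNGR1, the ligand-binding chain, and IFNGR2, the signalling chain, which carry JAK1 and JAK2. IL-10 binds a receptor of IL10RA, which is specific to it and carries JAK1, and IL10RB, which is shared with the receptors of IL-22 and type III interferons and carries TYK2; STAT3 is the main transcription factor of that receptor and is needed for the anti-inflammatory action of IL-10 in macrophages. STAT2 works mainly in the type I interferon pathway, where TYK2 and JAK1 sit on the receptor and STAT2 acts in a complex with IRF9.

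Levels are given as scaled TPM, the deposited TPM (an estimate of transcript share that allows for gene length and sums to 1000000 in a library) divided by 1 scaling factor per library. Differences are in log2(scaled TPM + 1), which understates changes of low genes, with 95% intervals from the limma fit of the groups compared. A gene was called at a Benjamini-Hochberg adjusted p under 0.05 over all 13631 genes. The files hold no read counts and the depth is unknown. The IFN-γ libraries listed fewer genes above 0 (14148 to 16295) than the others (16942 to 18457), and their replicates correlated less closely (Pearson r over genes 0.95 to 0.965 against 0.987 to 0.993). All 8 macrophage markers were present in every group, with a summed level of 14483 to 24418 scaled TPM. The 15 T cell markers summed to 187 to 254 scaled TPM in M0. With IL-10 they summed to 147 to 158 in non-phagocytic, 176 to 203 in Tconv-phagocytic and 238 to 259 in Treg-phagocytic libraries, and with IFN-γ to 524 to 737, 559 to 688 and 665 to 888. A sum is weighted to the most abundant markers. Marker by marker, 14 of the 15 were called higher and 1 lower in IFN-γ non-phagocytic libraries than in M0, with a median difference of 2.91. There 27.1% of all genes were called higher and 25.8% lower. In the same comparison 2 of the 8 macrophage markers were called higher and 6 lower, with a median of -0.31. Against IL-10 non-phagocytic libraries 2 were also higher with IFN-γ and 6 lower, with a median of -0.75 (26.2% and 24.8% of all genes). The 6 B cell markers summed to 7.7 to 13.7 in M0, 8.79 to 28.2 over the IL-10 groups and 39.7 to 67.0 over the IFN-γ groups. The 6 stromal markers summed to 104 to 123 in M0, 3.71 to 12.5 over the IFN-γ groups, and 74.2 to 78.2, 143 to 155 and 26.8 to 30.5 in IL-10 non-phagocytic, Tconv-phagocytic and Treg-phagocytic libraries. No marker of these 3 lists was at 0 throughout a group. The 7 neutrophil markers summed to 41.2 to 46.1 in M0 and 16.4 to 32.4 over the IL-10 groups. With IFN-γ they summed to 57.2 to 74.3 in non-phagocytic libraries and 26.1 to 51.0 in phagocytic ones. Within IL-10, 15 of 15 T cell markers were called higher in Treg-phagocytic than in non-phagocytic libraries (6.91% of all genes). In Tconv-phagocytic libraries 8 of 15 were called higher than in non-phagocytic ones (4.23% of all genes). Of the 6 stromal markers, 5 were lower in the first of these comparisons (4.49% of all genes) and 5 higher in the second (4.23%). RNA of these markers therefore moved with the comparisons of IFN-γ with M0 or IL-10, with those of uptake within IL-10 and with the tests of a difference between cytokines, and its part in them was not tested.

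Tyk2, Stat2 and Stat3 carried the widest differences. All 3 were higher with IFN-γ than in M0 in non-phagocytic and in Tconv-phagocytic macrophages, and all 3 were lower in IFN-γ Treg-phagocytic macrophages than in either of those groups, with no overlap between libraries. Il10rb took the opposite course: it was lower with IFN-γ than in M0 in non-phagocytic and Tconv-phagocytic macrophages and higher in the IFN-γ Treg-phagocytic ones than in either of those groups. With IL-10, Stat3 was higher than in M0, as were both IFN-γ receptor chains and Il10ra, while Tyk2 did not pass the test. Between the group with the lowest and the group with the highest mean, Stat2 spanned 3.05-fold, Tyk2 2.24-fold and Stat3 2.19-fold. The other 6 genes spanned 1.25-fold (Il10ra) to 1.73-fold (Ifngr1).

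**Figure D1:**
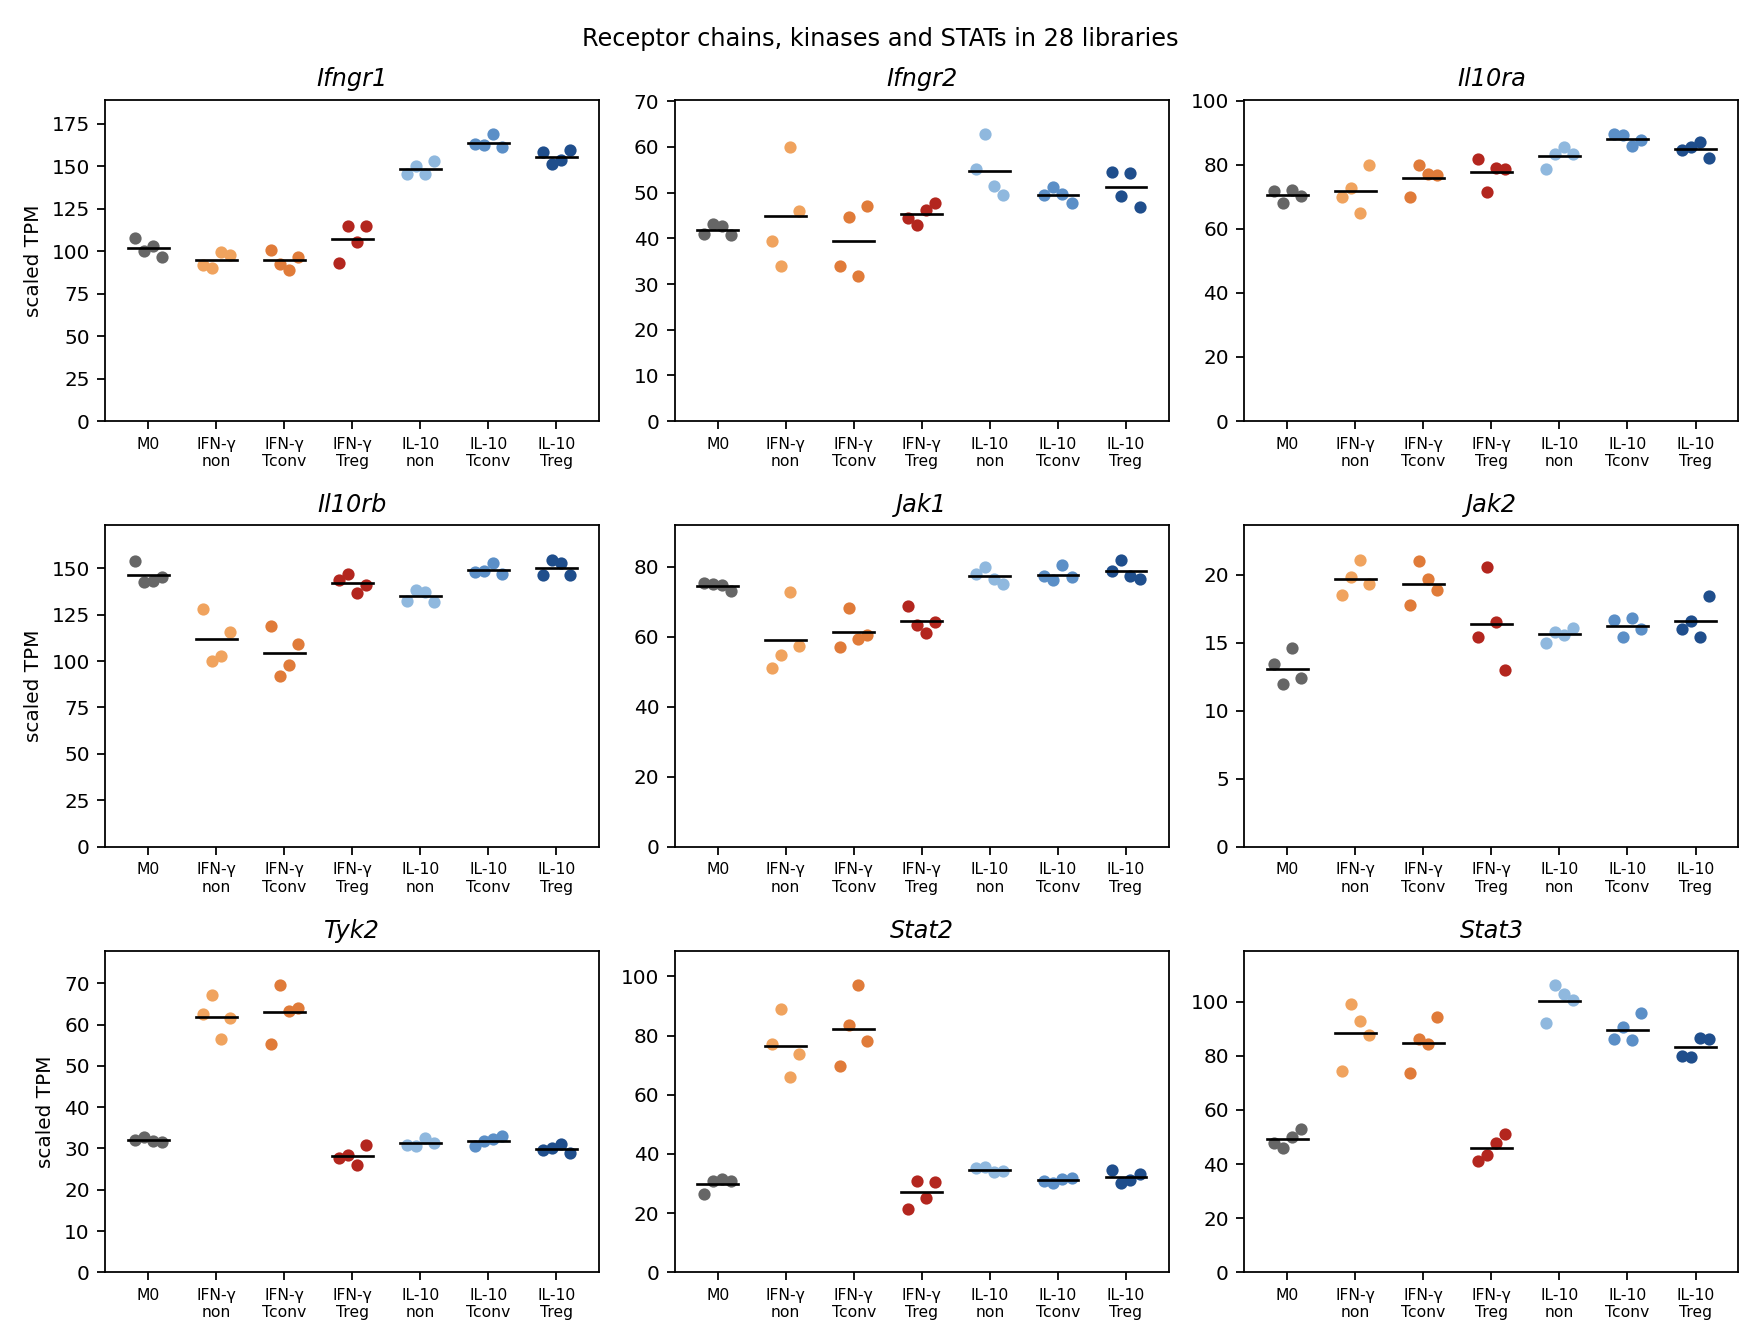
Level of each of the 9 genes (scaled TPM, linear axes from 0) in the 28 libraries, by group; each point is 1 library and each bar the mean of 4. Tyk2 and Stat2 are high in the IFN-γ non-phagocytic and Tconv-phagocytic libraries alone, and Stat3 is high there and in all 3 IL-10 groups.

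Counted over the list, 6 of the 9 genes differed between IFN-γ non-phagocytic macrophages and M0, where 52.9% of all genes tested were called: 4 were higher (27.1% of all genes) and 2 lower (25.8%). Between IL-10 non-phagocytic macrophages and M0, 7 of 9 were called against 26.5% of all genes, 6 higher (13.7%) and 1 lower (12.8%). Median differences over the 9 genes were 0.06 and 0.23, with 0.00 over all genes in both. IFN-γ and IL-10 were then compared at the same uptake status. In non-phagocytic libraries 7 of 9 genes differed (51.1% of all genes called), 3 higher with IFN-γ (26.2%) and 4 lower (24.8%). In Tconv-phagocytic libraries 8 of 9 differed (52.1%), 3 higher (27.1%) and 5 lower (25.0%). In Treg-phagocytic libraries 3 of 9 differed (36.7%), 0 higher (18.7%) and 3 lower (18.0%). In comparisons of IFN-γ with M0 or with IL-10 the share of all genes called was so large that a single call sets a gene little apart.

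Within IFN-γ, 4 of 9 genes differed between Treg-phagocytic and non-phagocytic libraries (8.3% of all genes), 1 higher (3.0%) and 3 lower (5.3%). Likewise 4 of 9 differed between Treg-phagocytic and Tconv-phagocytic libraries (12.7%), 1 higher (5.4%) and 3 lower (7.3%). These shares lie above those of all genes, but the list was chosen with earlier results of these data known. Both comparisons share the Treg-phagocytic libraries, and the genes are not independent of one another. None of the 9 differed between IFN-γ Tconv-phagocytic and non-phagocytic libraries, where limma called 1 of all genes (0.00734%) and 870 had an unadjusted p under 0.05. Within IL-10, 2 of 9 differed between Treg-phagocytic and non-phagocytic libraries (11.4%), 1 higher (6.91%) and 1 lower (4.49%). Between Tconv-phagocytic and non-phagocytic libraries 3 of 9 differed (6.03%), 2 higher (4.23%) and 1 lower (1.8%). Between Treg-phagocytic and Tconv-phagocytic libraries 0 of 9 did, where limma called 191 of all genes (1.4%) and 1892 had an unadjusted p under 0.05. The test of whether the difference between uptake groups was unlike between the cytokines was called for 3 of 9 genes for Treg against non-phagocytic libraries (9.44% of all genes), 4 of 9 for Treg against Tconv (13.6%) and 0 of 9 for Tconv against non-phagocytic (1.68%).

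These counts depend on the scaling factors, which differ between groups. Without them the median of all genes, near 0 with them, was -0.242 for IFN-γ non-phagocytic macrophages against M0 and -0.257, -0.146 and -0.264 for IFN-γ against IL-10 in non-phagocytic, Tconv-phagocytic and Treg-phagocytic libraries. The share of called genes that were higher then moved from 51.2% to 31.5% against M0 and from 51.4% to 29.9%, 52.0% to 37.5% and 50.8% to 24.4% against IL-10. For IFN-γ Treg-phagocytic libraries it moved from 36.2% to 17.5% against non-phagocytic and from 42.5% to 15.1% against Tconv-phagocytic ones, and within IL-10 from 60.6% to 26.9% (Treg-phagocytic) and from 70.2% to 25.4% (Tconv-phagocytic) against non-phagocytic ones. Small differences of the receptor chains and of Jak1 and Jak2 are to be read against these shifts.

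**Figure D2:**
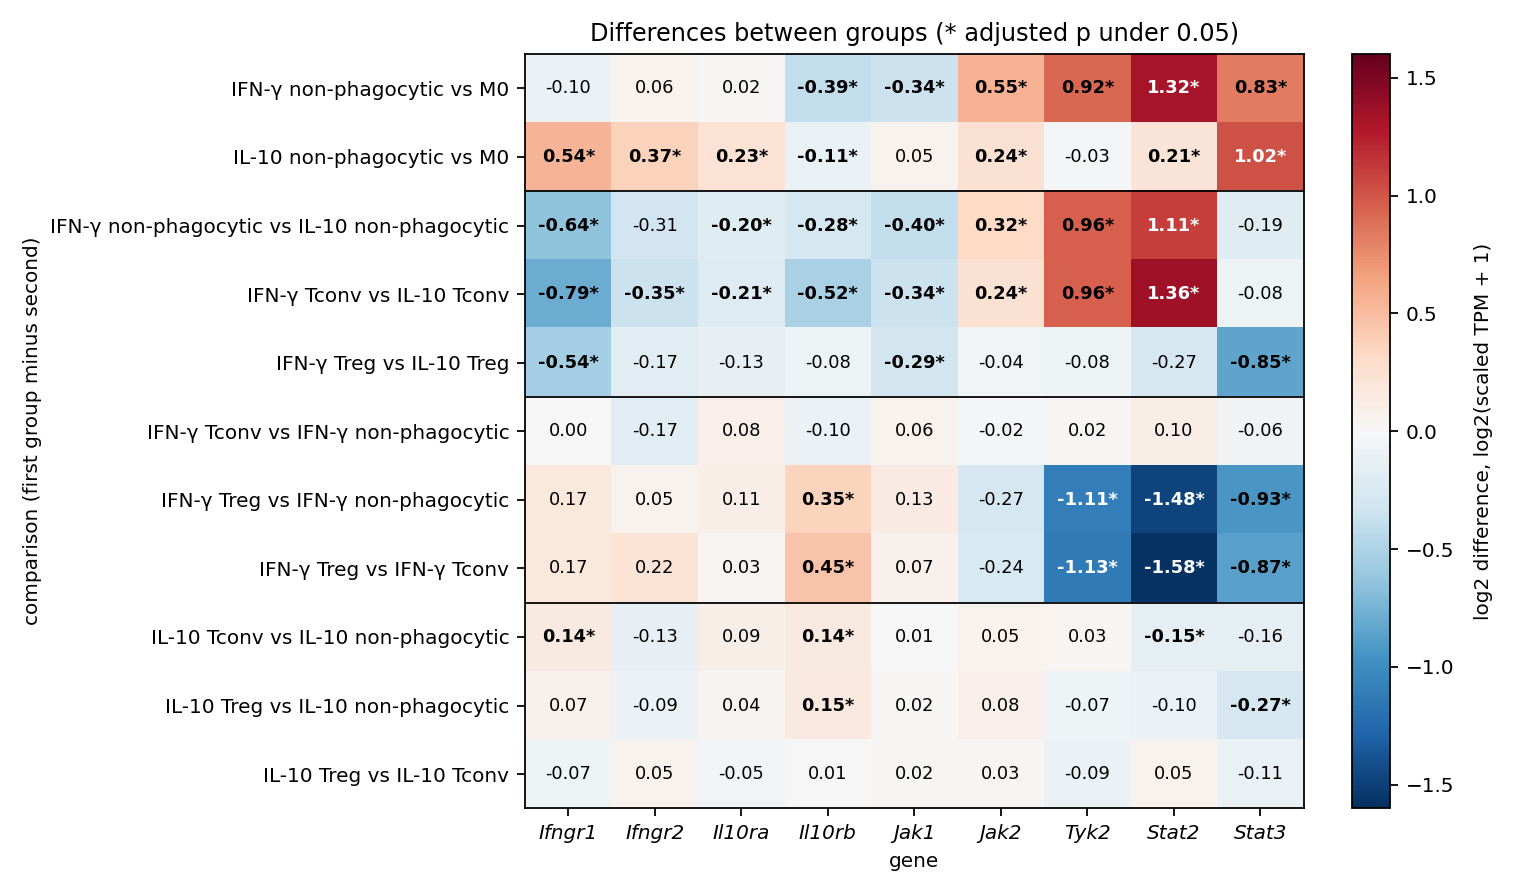
Difference of each gene in 11 comparisons (first group minus second, log2(scaled TPM + 1)); red is higher and blue lower in the first group, and bold values with an asterisk passed the adjusted p threshold. Within IFN-γ the called values lie in the Il10rb, Tyk2, Stat2 and Stat3 columns of the rows on Treg uptake, while the row of Tconv against non-phagocytic libraries has none.

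Ifngr1 (ENSMUSG00000020009, chr10:19591949-19610229, plus strand, GRCm38) encodes the chain that binds IFN-γ and was the receptor gene with the clearest difference between cytokines. In M0 its 4 libraries were at 108, 100, 103 and 96.8 scaled TPM, in IFN-γ non-phagocytic ones at 91.6, 90.2, 99.3 and 97.9, and in IL-10 non-phagocytic ones at 145, 150.2, 146 and 153. All 12 IL-10 libraries lay between 145 and 169, above every other library, the highest of which was at 115 in the IFN-γ Treg-phagocytic group. Ifngr1 rose with IL-10 over M0 by 0.54 (0.46 to 0.62, adjusted p = 1.03e-05), and the difference from M0 with IFN-γ was -0.10 (-0.22 to 0.01, adjusted p = 0.123). That difference was called without scaling factors (-0.39, adjusted p = 0.000329) and with a correction for GC content and length (-0.22, 0.00581). It was lower with IFN-γ than with IL-10 by -0.64 in non-phagocytic, -0.79 in Tconv-phagocytic and -0.54 in Treg-phagocytic macrophages (adjusted p = 4.41e-06, 1.66e-06 and 0.000425). Within IL-10 it was a little higher in Tconv-phagocytic than in non-phagocytic libraries (0.14, adjusted p = 0.0184). That call was lost without IL-10 non-phagocytic replicate 1 (adjusted p = 0.0501) or replicate 3 (0.0567), without scaling factors (0.06, 0.207) and in the joint fit (0.331). The IFN-γ Treg-phagocytic libraries, at 93.2, 115, 106 and 114, differed from IFN-γ non-phagocytic ones by 0.17 (-0.01 to 0.35) and did not pass the test.

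Ifngr2 (ENSMUSG00000022965, chr16:91547072-91565623, plus strand), the signalling chain of the same receptor, had the lowest level of the 4 receptor genes, with group means of 39.3 to 54.7 scaled TPM. With IL-10 the non-phagocytic libraries were at 55.1, 62.8, 51.4 and 49.5, all above M0 (41.0, 43.2, 42.7 and 40.8), a rise of 0.37 (0.21 to 0.53, adjusted p = 0.00433). The IFN-γ non-phagocytic libraries were spread from 34.0 to 59.9 and the Tconv-phagocytic ones from 31.7 to 47.0, coefficients of variation of 24.9% and 19.3% against 2.9% in M0. The difference from M0 with IFN-γ was 0.06 (-0.28 to 0.40), an interval too wide to tell a fall from a rise. IFN-γ Tconv-phagocytic libraries were lower than IL-10 Tconv-phagocytic ones by -0.35 (adjusted p = 0.039), a call lost without any 1 of 6 of the 8 libraries (adjusted p 0.0694 to 0.0911 without IFN-γ BV421-1 or Ax647-1 or any of the 4 IL-10 libraries). The difference from IL-10 in non-phagocytic libraries, -0.31, did not pass. It passed without scaling factors (-0.61, adjusted p = 0.0105), in a joint fit of all 28 libraries (-0.31, 0.0378), with variance weights per group (-0.31, 0.0386) and without IFN-γ replicate 3, the library at 59.9 (-0.45, 0.0132).

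Il10ra (ENSMUSG00000032089, chr9:45253837-45269149, minus strand), the chain that only the IL-10 receptor uses, varied least. Its group means ran from 70.5 in M0 through 71.9, 75.9 and 77.7 in the IFN-γ non-phagocytic, Tconv-phagocytic and Treg-phagocytic groups to 82.6, 88.1 and 84.9 in the corresponding IL-10 groups. Neighbours in the order of the means overlapped at every step. Il10ra rose with IL-10 over M0 by 0.23 (0.15 to 0.30, adjusted p = 0.00117), from 68.0 to 72.1 scaled TPM in the M0 libraries to 78.6 to 85.4. It was lower with IFN-γ than with IL-10 by -0.20 in non-phagocytic and -0.21 in Tconv-phagocytic libraries (adjusted p = 0.0301 and 0.00702). A correction for GC content and length took these to -0.07 (adjusted p = 0.429) and -0.09 (0.222), and the first was also lost without IFN-γ replicate 1 or 3 or IL-10 replicate 2, 3 or 4 (adjusted p 0.0553 to 0.0816). Against M0 its difference with IFN-γ was 0.02 (-0.12 to 0.17).

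Il10rb (ENSMUSG00000022969, chr16:91406164-91425834, plus strand), the chain shared with other receptors of the IL-10 and interferon-λ families, had the highest level of the 9 genes in M0, at 154, 143, 143 and 145 scaled TPM. The IFN-γ non-phagocytic libraries were at 128, 100.3, 103 and 116 and the Tconv-phagocytic ones at 119, 91.8, 98.0 and 109, all below the lowest M0 library. The IFN-γ Treg-phagocytic libraries stood at 143, 147, 137 and 141, above all 8 of the other IFN-γ libraries and overlapping M0. Il10rb fell with IFN-γ by -0.39 (-0.57 to -0.21, adjusted p = 0.00261) in non-phagocytic macrophages. It was higher in IFN-γ Treg-phagocytic than in Tconv-phagocytic libraries by 0.45 (0.26 to 0.63, adjusted p = 0.0107). Against non-phagocytic libraries it was higher by 0.35 (0.16 to 0.54, adjusted p = 0.037), a call that held without IFN-γ non-phagocytic replicate 1 and was lost without any 1 of the other 7 libraries (adjusted p 0.069 to 0.0849), without scaling factors (0.27, 0.0768) or without the filter on low values (0.095). The difference between Treg and Tconv uptake was larger with IFN-γ than with IL-10 by 0.44 (0.25 to 0.63, adjusted p = 0.0034). With IL-10, Il10rb was slightly lower than in M0 (-0.11, adjusted p = 0.026) and slightly higher in Treg-phagocytic and Tconv-phagocytic than in non-phagocytic libraries (0.15 and 0.14, adjusted p = 0.0132 and 0.0135). Both of the latter calls were lost without scaling factors (0.07 and 0.06, adjusted p = 0.148 and 0.146) and in the joint fit of all 28 libraries (0.284 and 0.56). Its call against M0 with IL-10 was lost without M0 replicate 4, IL-10 replicate 1 or IL-10 replicate 4 (adjusted p 0.053 to 0.0673), without scaling factors (0.0586), without the filter on low values (0.0555) and in the joint fit (0.353). Of the exonic bases of Il10rb, 14.9% are shared with Gm21970 on the same strand in the annotation, so reads there could be given to either gene.

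Jak1 (ENSMUSG00000028530, chr4:101152367-101265282, minus strand), the kinase common to both receptors, was lower in the IFN-γ groups. M0 libraries lay at 75.3, 75.1, 74.9 and 73.1 scaled TPM and the 12 IL-10 libraries at 75.2 to 82.0. The IFN-γ libraries lay at 51.1, 54.8, 72.9 and 57.4 (non-phagocytic), 57.0, 68.3, 59.4 and 60.6 (Tconv-phagocytic) and 68.9, 63.4, 61.0 and 64.2 (Treg-phagocytic), each of them below every M0 and IL-10 library. The fall from M0 was -0.34 (-0.57 to -0.12, adjusted p = 0.0169) in non-phagocytic macrophages, a call lost without the filter on low values (0.054). The 3 IFN-γ groups overlapped one another. Jak1 was lower with IFN-γ than with IL-10 by -0.40, -0.34 and -0.29 in non-phagocytic, Tconv-phagocytic and Treg-phagocytic macrophages (adjusted p = 0.00886, 0.00143 and 0.00266). With Ifngr1 it was 1 of only 2 genes called lower with IFN-γ than with IL-10 at all 3 uptake states.

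Jak2 (ENSMUSG00000024789, chr19:29251828-29313080, plus strand), the kinase carried by IFNGR2, had the lowest level of the 9 genes. M0 libraries lay at 13.4, 12.0, 14.6 and 12.4 scaled TPM, IFN-γ non-phagocytic ones at 18.5, 19.8, 21.1 and 19.3 and Tconv-phagocytic ones at 17.8, 21.0, 19.7 and 18.9. Jak2 rose with IFN-γ by 0.55 (0.36 to 0.75, adjusted p = 0.000644). The Treg-phagocytic libraries were scattered at 15.4, 20.6, 16.5 and 13.0, from M0 levels to those of the other IFN-γ libraries, and their differences of -0.27 (-0.59 to 0.06) and -0.24 (-0.57 to 0.08) from non-phagocytic and Tconv-phagocytic libraries did not pass. A rise with IL-10 of 0.24 (adjusted p = 0.0232) was lost without any 1 of 5 of the 8 libraries, M0 replicates 2 and 4 and IL-10 replicates 2, 3 and 4 (adjusted p 0.0525 to 0.0639). The joint fit of all 28 libraries (0.11) and the replicate block (0.0636) also lost that rise. Jak2 was higher with IFN-γ than with IL-10 by 0.32 in non-phagocytic macrophages (adjusted p = 0.00625) and by 0.24 in Tconv-phagocytic ones (0.026), and without scaling factors these came to 0.02 and 0.07 and did not pass. The second was also lost without IL-10 BV421-1, BV421-2 or Ax647-2 (adjusted p 0.0507 to 0.0765).

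Tyk2 (ENSMUSG00000032175, chr9:21104068-21131243, minus strand), the kinase of IL10RB and of the type I interferon receptor, is shown with Stat2 and Stat3 by the 250 bases before each start site, because these 3 genes moved together in the IFN-γ groups. The sequences are RefSeq's (GRCm38.p6), written 5′ to 3′ on the strand of the gene, with capitals for a match to a searched motif. Promoters of 7 of the 9 genes matched an entry, and Il10ra and Il10rb did not.

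Tyk2, chr9:21131276-21131525, minus strand: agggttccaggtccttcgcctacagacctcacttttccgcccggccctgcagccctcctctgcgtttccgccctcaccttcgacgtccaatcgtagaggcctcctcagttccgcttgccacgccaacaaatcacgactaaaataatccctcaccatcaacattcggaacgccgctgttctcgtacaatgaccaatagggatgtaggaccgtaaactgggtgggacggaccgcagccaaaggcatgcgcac

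Stat2, chr10:128270248-128270497, plus strand: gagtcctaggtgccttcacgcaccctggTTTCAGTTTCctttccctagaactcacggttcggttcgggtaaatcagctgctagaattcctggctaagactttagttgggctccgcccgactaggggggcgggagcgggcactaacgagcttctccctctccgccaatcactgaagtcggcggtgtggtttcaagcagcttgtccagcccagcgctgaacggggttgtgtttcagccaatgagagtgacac

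Stat3, chr11:100939541-100939790, minus strand: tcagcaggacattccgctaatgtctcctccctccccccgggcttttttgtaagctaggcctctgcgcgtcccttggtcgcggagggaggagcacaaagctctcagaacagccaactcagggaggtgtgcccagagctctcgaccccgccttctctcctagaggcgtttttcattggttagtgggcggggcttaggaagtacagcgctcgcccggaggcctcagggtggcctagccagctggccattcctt

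A pair of motifs was searched on both strands: GAAA and GAAA with any 2 bases between them (TTTC and TTTC on the other strand), the form of an interferon-stimulated response element, and TTCNNNGAA, the palindrome that STAT dimers bind. The strings can overlap by a few bases. Of the 7 promoters, Stat2 had the only match, TTTCAGTTTC, starting 222 bases before the start site; 2.98% of 32851 promoters of this length have a match to that motif and 7.02% to TTCNNNGAA, which none of the 7 has. These are matches of letters and not measured binding.

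Tyk2 was flat outside the IFN-γ groups, at 31.6 to 32.8 scaled TPM in M0 and 28.8 to 33.0 in the 12 IL-10 libraries. IFN-γ non-phagocytic libraries were at 62.5, 67.2, 56.5 and 61.5 and Tconv-phagocytic ones at 55.3, 69.5, 63.3 and 64.1. Treg-phagocytic libraries were at 27.6, 28.5, 25.9 and 30.8, each below every M0 library. Tyk2 rose with IFN-γ over M0 by 0.92 (0.79 to 1.06, adjusted p = 3.79e-06), 1.9-fold in scaled TPM + 1. In Treg-phagocytic macrophages it was lower than in non-phagocytic ones by -1.11 (-1.29 to -0.92, adjusted p = 0.000535) and than in Tconv-phagocytic ones by -1.13 (-1.34 to -0.92, adjusted p = 0.000847). In scaled TPM + 1 these are differences of 2.15-fold and 2.19-fold. With IL-10 the corresponding differences were -0.07 and -0.09 and did not pass (the first passed without scaling factors, at -0.15, adjusted p = 0.0357), and the test of the difference between cytokines gave -1.04 for Treg against non-phagocytic (adjusted p = 5.45e-06) and -1.04 for Treg against Tconv (1.71e-05). Of the exonic bases of Tyk2, 8.1% lie opposite exons of 1700084C06Rik. The libraries were strand-specific per the labels' protocols, but whether strand was used in counting is not given in the sources used here.

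Stat2 (ENSMUSG00000040033, chr10:128270559-128292849, plus strand), the STAT of the type I interferon complex, showed the widest range. Its M0 libraries were at 26.6, 31.0, 31.7 and 30.7 scaled TPM. IFN-γ non-phagocytic libraries were at 77.2, 89.0, 65.9 and 73.9, Tconv-phagocytic ones at 69.7, 83.7, 97.0 and 78.1, and Treg-phagocytic ones at 21.3, 30.9, 25.1 and 30.6. The last 4 overlapped M0, and the lowest of the other 8 IFN-γ libraries was at 65.9. Stat2 rose with IFN-γ over M0 by 1.32 (1.10 to 1.54, adjusted p = 7.24e-06). It was lower in Treg-phagocytic than in non-phagocytic macrophages by -1.48 (-1.80 to -1.16, adjusted p = 0.00144), a 2.79-fold difference in scaled TPM + 1. Against Tconv-phagocytic macrophages the difference was -1.58 (-1.91 to -1.25, adjusted p = 0.00129). All 12 IL-10 libraries lay between 30.1 and 35.6. The rise of 0.21 with IL-10 over M0 (adjusted p = 0.0244) was lost without IL-10 replicate 1 (0.059) or 2 (0.0631). It was also lost in the joint fit of all 28 libraries (0.245), without the filter (0.064) and with the replicate block (0.0591). The difference of -0.15 between IL-10 Tconv-phagocytic and non-phagocytic libraries (0.0318) was lost without any 1 of the 8 (0.0543 to 0.0789). The joint fit (0.971), variance weights (0.0903) and the replicate block (0.141) also lost it. The Treg-phagocytic difference with IFN-γ minus that with IL-10 was -1.38 against non-phagocytic (adjusted p = 3.32e-05) and -1.63 against Tconv-phagocytic libraries (1.67e-05).

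Stat3 (ENSMUSG00000004040, chr11:100885098-100939540, minus strand), the transcription factor of the IL-10 receptor, was high with either cytokine except in IFN-γ Treg-phagocytic macrophages. M0 libraries lay at 47.6, 45.8, 50.1 and 52.8 scaled TPM. IL-10 non-phagocytic libraries lay at 92.1, 106, 103 and 101 and IFN-γ non-phagocytic ones at 74.2, 99.0, 92.9 and 87.5, rises over M0 of 1.02 (0.89 to 1.15, adjusted p = 2.8e-06) and 0.83 (0.63 to 1.04, adjusted p = 8.05e-05). IFN-γ Tconv-phagocytic libraries were at 73.7, 86.1, 84.5 and 94.4 and Treg-phagocytic ones at 41.0, 43.5, 47.7 and 51.2, the last 4 within or below the M0 range. Treg-phagocytic macrophages were lower than non-phagocytic ones by -0.93 (-1.17 to -0.68, adjusted p = 0.00254) and than Tconv-phagocytic ones by -0.87 (-1.09 to -0.65, adjusted p = 0.00205). With IL-10 a smaller fall was called, from the values above to 80.0, 79.7, 86.5 and 86.0 (-0.27, -0.38 to -0.16, adjusted p = 0.0109), which was lost in the joint fit of all 28 libraries (0.0566). The Treg-phagocytic difference with IFN-γ minus that with IL-10 was -0.66 against non-phagocytic (adjusted p = 0.00214) and -0.76 against Tconv-phagocytic libraries (0.000263). Accordingly Stat3 was lower with IFN-γ than with IL-10 in Treg-phagocytic macrophages (-0.85, -1.02 to -0.67, adjusted p = 5.76e-05), while the differences in non-phagocytic (-0.19, -0.39 to 0.01) and Tconv-phagocytic libraries (-0.08, -0.26 to 0.09) did not pass. Without scaling factors both passed (-0.49, adjusted p = 0.00143, and -0.26, 0.0215). The non-phagocytic difference also passed without IFN-γ non-phagocytic replicate 2, the highest of its group (-0.24, 0.0438), and with the replicate block (-0.19, 0.0375). Only 0.8% of the exonic bases of Stat3 lie opposite those of Stat5a.

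The calls on Tyk2, Stat2 and Stat3 between IFN-γ Treg-phagocytic and both other IFN-γ groups held under each alternative run, including the removal of any 1 library; the highest adjusted p was 0.0181, 0.02 and 0.0251 against non-phagocytic and 0.00768, 0.00855 and 0.0106 against Tconv-phagocytic libraries. The T cell marker sum was highest in the Treg-phagocytic libraries, at 665 to 888 against 524 to 737 and 559 to 688. Against non-phagocytic and Tconv-phagocytic libraries, 1 and 2 of the 15 markers were called higher there and none lower. In these comparisons 3.0% and 5.4% of all genes were called higher and 5.3% and 7.3% lower. The summed macrophage markers were also higher (23642 to 24418 against 17265 to 19967 in the other 8), with 5 and 6 of 8 called higher and 1 lower, and fewer genes were above 0 (14148 to 15159 against 15376 to 16295). The part of these in the differences was not tested. In bulk libraries, fewer cells with a transcript and less of it per cell cannot be told apart.

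The IFN-γ Treg-phagocytic and Tconv-phagocytic libraries were also set against M0, a pair of comparisons added after the data were seen and sharing the 4 M0 libraries with those above. In Tconv-phagocytic macrophages 6 of 9 genes were called, 4 higher and 2 lower, where 55.3% of all genes were called (28.6% higher and 26.7% lower): Stat2 by 1.42 (1.19 to 1.65), Tyk2 by 0.95 (0.79 to 1.11), Stat3 by 0.77 (0.59 to 0.95), Jak2 by 0.53 (0.33 to 0.73), Il10rb by -0.49 (-0.66 to -0.31) and Jak1 by -0.28 (-0.42 to -0.14). In Treg-phagocytic macrophages 1 of 9 was called, lower, with 44.6% of all genes called (22.3% higher and 22.2% lower): Jak1 by -0.21 (-0.32 to -0.10, adjusted p = 0.00764). Intervals for the rest were -0.34 to -0.03 for Tyk2, -0.45 to 0.13 for Stat2, -0.28 to 0.09 for Stat3 and -0.14 to 0.05 for Il10rb, all of which leave out the differences seen in the other IFN-γ groups. For Jak2 the interval was -0.03 to 0.61, which does not. Tyk2 was called with a pseudocount of 0.1 (-0.19, adjusted p = 0.0478), without the filter (-0.18, 0.0412) and with variance weights (-0.18, 0.0281). Without Treg-phagocytic BV421-2 both Tyk2 (-0.22, adjusted p = 0.016) and Jak2 (0.38, 0.0379) were called, and without Ax647-2 Il10ra was (0.18, 0.0115), so 3 and 2 genes were called in place of 1. Without scaling factors 8 of 9 were called, and the share of higher calls over all genes moved from 50.1% to 24.0% (from 51.7% to 34.8% for Tconv-phagocytic libraries). Correction for GC content and length took Jak1 to -0.08 (adjusted p = 0.246).

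**Figure D3:**
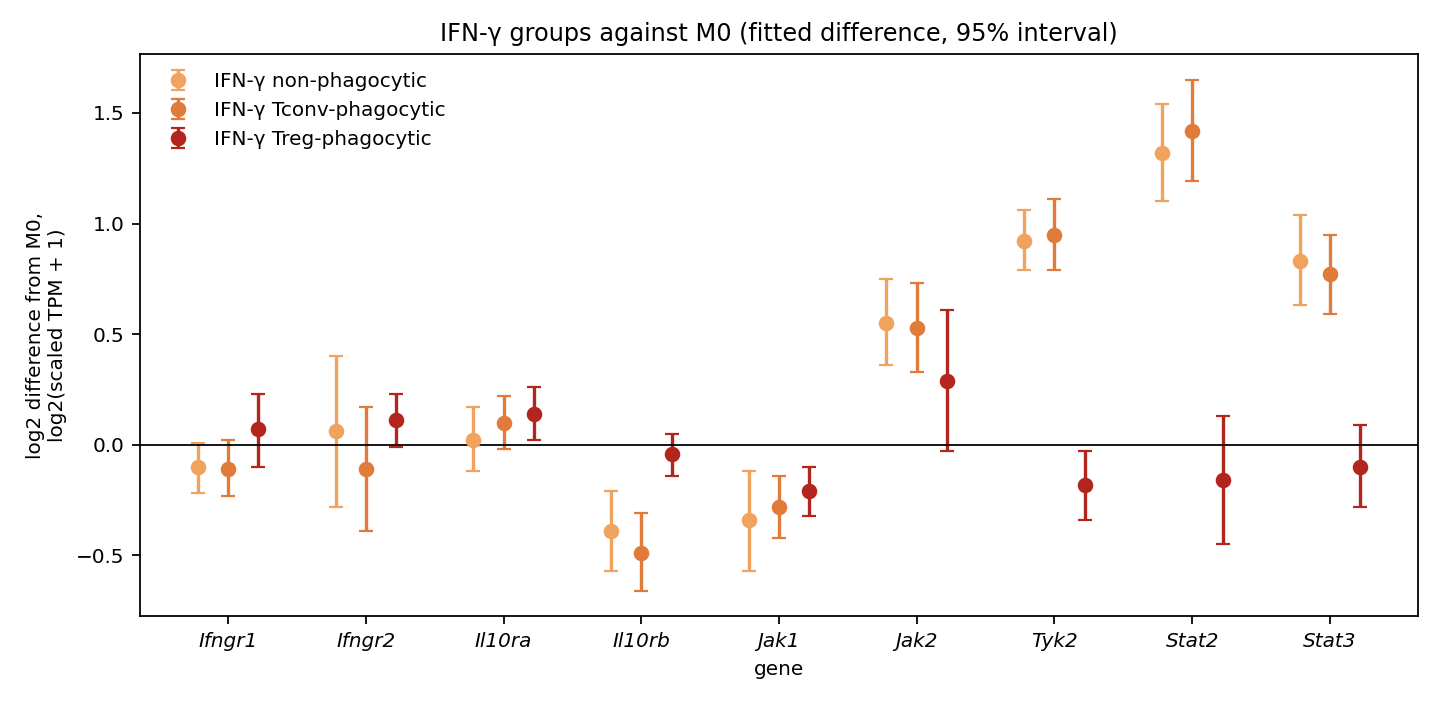
Fitted difference from M0 (log2(scaled TPM + 1)) of the 9 genes in the 3 IFN-γ groups; points are the fitted differences of 4 against 4 libraries and bars their 95% intervals. For Tyk2, Stat2 and Stat3 the Treg-phagocytic intervals lie well below those of the other 2 groups, for Il10rb above them, and for the other 5 genes the 3 intervals overlap.

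Other genes of the pathway did not all share the Treg difference. Of the other JAK, the other STATs and Irf9, the partner of STAT2, 0 of 6 were called between IFN-γ Treg-phagocytic and non-phagocytic or Tconv-phagocytic libraries, with medians of 0.04 and 0.17. Of all genes 8.3% and 12.7% were called in these comparisons. Stat4, which signals below the IL-12 receptor, was at 4.95 ± 0.703 (SD, n = 4) scaled TPM in IFN-γ non-phagocytic and 7.53 ± 1.33 in Treg-phagocytic libraries, and Irf9 at 31.3 ± 2.15 and 31.2 ± 6.85. Of 11 related cytokine receptor genes tested, Il12rb1 alone was called in either comparison. Il12rb1, a chain of the IL-12 and IL-23 receptors that works with TYK2, was at 14.2 ± 4.25 in non-phagocytic, 14.1 ± 2.6 in Tconv-phagocytic and 4.31 ± 1.47 in Treg-phagocytic libraries (-1.52 and -1.54), and at 1.27 ± 0.12 in M0. The type I interferon receptor chains Ifnar1 and Ifnar2 differed by -0.05 and 0.10 from non-phagocytic libraries and did not pass.

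Negative regulators of the pathway differed among themselves. Against M0, 9 of 12 negative regulators rose and 1 fell in IFN-γ non-phagocytic macrophages, where 27.1% of all genes were called higher and 25.8% lower. The 3 largest rises were Usp18 (2.08), Socs3 (2.00) and Socs1 (1.71). In IFN-γ Treg-phagocytic macrophages 2 of 12 were lower than in non-phagocytic ones (5.3% of all genes): Pias1 (-0.61), a SUMO ligase that restrains STATs, and Ptprc (-0.42), the phosphatase CD45. Against Tconv-phagocytic macrophages 4 were lower (7.3% of all genes), led by Pias1 (-0.87), Usp18 (-0.83), which restrains the type I interferon receptor, and the phosphatase gene Ptpn1 (-0.50). Socs1, which inhibits JAK1 and JAK2, had 5.23 ± 1.6 scaled TPM in non-phagocytic and 5.63 ± 1.69 in Treg-phagocytic libraries (0.08, not called), and Socs3, which acts on gp130-type receptors and is induced through STAT3, 16.5 ± 2.84 and 17.7 ± 2.65 (0.10, not called). No regulator was called higher in either comparison, where 3.0% and 5.4% of all genes were.

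The target genes are given by list, with no test between lists. Of 14 IFN-γ target genes tested, 8 were lower in IFN-γ Treg-phagocytic than in non-phagocytic and 9 than in Tconv-phagocytic macrophages, none was higher, and the median was -0.51 in both; 5.3% and 7.3% of all genes were lower in these comparisons. Gbp2, an interferon-induced GTPase, was at 290.1 ± 33.3, 214 ± 40.0 and 73.5 ± 17.7 scaled TPM in non-phagocytic, Tconv-phagocytic and Treg-phagocytic libraries (-1.99 and -1.54). Nlrc5, the transactivator of MHC class I genes, differed by -1.17 and -1.37, and Irf1, an early transcription factor of the response, by -0.85 and -1.08. Against M0, where Gbp2 had 4.28 ± 0.981, 13 of the 14 were still higher in Treg-phagocytic macrophages (22.3% of all genes). The exception was Ciita, the transactivator of MHC class II genes (0.05, not called). Of 10 type I interferon targets, whose induction by interferon runs through STAT2, 0 were called between Treg-phagocytic and non-phagocytic or Tconv-phagocytic macrophages (medians -0.14 and -0.09), where 8.3% and 12.7% of all genes were. In both non-phagocytic and Treg-phagocytic macrophages 9 were higher than in M0 (27.1% and 22.3% of all genes). The differences ranged from -0.67 for Ifi44 to 0.22 for Ifit1 against non-phagocytic libraries. Of 9 IL-10 and STAT3 targets, 2 were lower (Pim1 by -0.49 and Etv3 by -0.38) and 1 higher (Zfp36 by 0.23) than in non-phagocytic macrophages, and 3 were lower than in Tconv-phagocytic ones (Pim1 by -0.56, Sbno2 by -0.52 and Etv3 by -0.51). Over all genes the median of the first comparison was 0.04 and of the second 0.04.

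**Figure D4:**
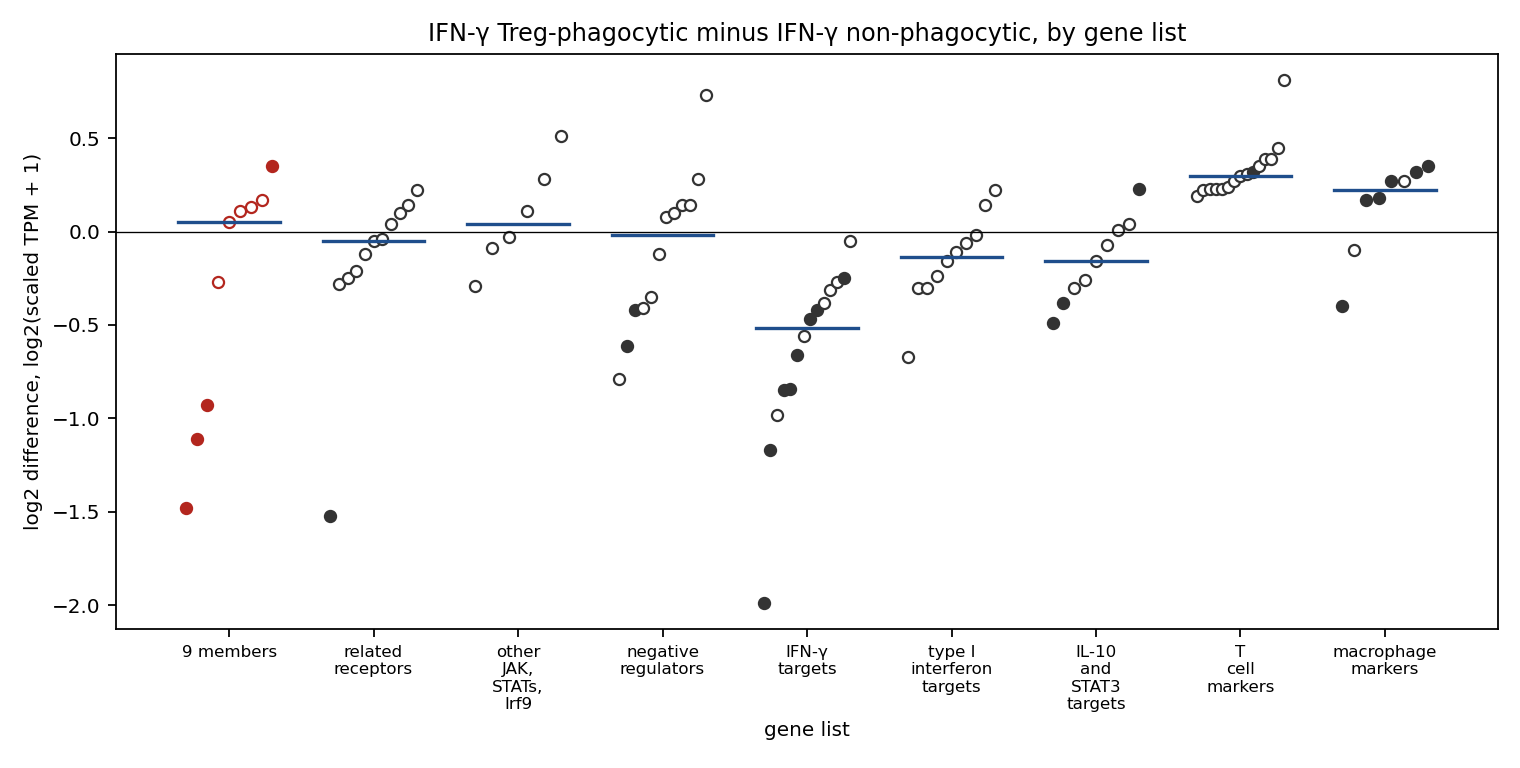
Difference of single genes between IFN-γ Treg-phagocytic and non-phagocytic macrophages (log2(scaled TPM + 1)) for the 9 genes (red) and 8 other lists; filled points passed the adjusted p threshold and the blue line is the list's median. The IFN-γ targets have a median of -0.51 and the type I interferon targets, with no filled point, one of -0.14.

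The same lists were counted with IL-10 against M0, where 13.7% of all genes were called higher and 12.8% lower. All 11 related receptor genes tested rose in non-phagocytic macrophages, with a median of 0.59: Il4ra, the IL-4 and IL-13 receptor chain, from 40.6 ± 0.889 to 218 ± 4.88 scaled TPM (2.39), Il21r by 1.14 and Csf3r by 0.77. All 9 IL-10 and STAT3 targets rose, with a median of 0.90, led by Bcl3 (1.66), Sbno2 (1.45) and Nfil3 (1.32), nuclear regulators induced through STAT3. Socs3 rose most of the 12 negative regulators, from 3.41 ± 1.03 to 150.4 ± 4.14 scaled TPM (5.13), and 4 of the 12 rose in all and 2 fell. The gene of the remaining Janus kinase, Jak3, rose by 1.32, and 4 of the 6 other JAK, STAT and partner genes rose. Of the IFN-γ targets 10 of 14 rose and none fell, with a median of 0.51, against 14 of 14 and 1.81 with IFN-γ. Of the type I interferon targets 0 of 10 were higher and 4 lower, Ifit3 by -0.80 and Rsad2 by -0.56 among them. The median of all genes was 0.00. Of 7 related ligands 3 passed the filter: Il10 itself rose over M0 by 0.87 with IL-10 and by 1.56 with IFN-γ, from 0.32 ± 0.121 to 1.41 ± 0.175 and 2.95 ± 0.831 scaled TPM. These levels are low, with M0 libraries at 0.163 to 0.456. With IFN-γ 14 of the 15 T cell markers were also called higher than in M0 and 1 lower. The cells that the Il10 RNA came from were not tested.

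Correlation over the 28 libraries describes how the 9 genes ran together; all points share the 7 groups and their scaling, and no p is given. Tyk2 and Stat2 had a Pearson r of 0.97, and Il10rb ran against both (-0.89 and -0.90). Stat3 correlated with Tyk2 at 0.37 and with Stat2 at 0.45, Ifngr1 with Il10ra at 0.76 and with Jak1 at 0.74, and Jak2 with Stat2 at 0.69. Among 8703 genes searched, the 3 most like Tyk2 were Dnajc7 (0.977), Stat2 (0.975) and Poldip3 (0.972), and those most like Stat2 were Poldip3 (0.977), Tyk2 (0.975) and Srrm2 (0.974). For Stat3 they were Bach1 (0.936), Pstpip1 (0.913) and Stx12 (0.899). Ifngr1 was followed most closely by Pgk1 (0.983), C1qc (0.982) and Clec4a1 (0.979). The nearest for Il10rb were Cd84 (0.924), Tnfrsf1b (0.91) and Snx17 (0.905), and for Il10ra Clec4n (0.886), Fcgrt (0.866) and Il1b (0.863). Jak1 was nearest to Zscan26 (0.922), Man2a1 (0.917) and Ranbp2 (0.912), and Jak2 to Parp8 (0.883), Sema4a (0.868) and Ralgds (0.85). For Ifngr2, whose IFN-γ replicates were spread, the closest reached 0.778 (Rgl1), 0.751 (Pold4) and 0.74 (Thap11).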

How the data were processed

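Per the labels' protocols, RNA was extracted with RNAiso PLUS and directional libraries of poly(A) RNA were made (NEBNext Ultra II). The submitters' processing notes name STAR, RSEM and mm10 without versions; the annotation is not given in the sources used here. The deposited values are TPM per Ensembl gene ID, per the file headers; 55141 of 55487 IDs matched a symbol. Of 378 pairs of libraries 0 were identical, and no library was left out. TPM were divided by a scaling factor per library (trimmed mean of log2 ratios, 30% of ratios and 5% of levels trimmed), and log2(value + 1) was fitted with limma 3.58.1 (R 4.3.3; lmFit, eBayes with trend) on only the groups compared, since replicates spread more in the IFN-γ groups. The fit was tested on simulated data. Positions and exon overlaps are from GENCODE (GRCm38). Where titles and library names disagree on dye, as in the 8 Treg-phagocytic libraries, titles were used. The genes, lists, and the rules for naming genes were chosen with earlier results of these data known: all 9 genes are named in each comparison, up to 3 called rises and falls per list, and for each gene the 3 with the closest correlation; other genes named were chosen after their values were seen. Alternatives were median-of-ratios scaling, none, a pseudocount of 0.1, no filter, a joint fit of all 28 libraries, variance weights, a replicate block, the dye, and each library left out. A correction for GC content and length was added after seeing the data.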

Additional observations from a re-analysis of the deposited data

Results flagged for a closer look

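In 7 cases the difference of a gene between Treg-phagocytic and other libraries was unlike between IFN-γ and IL-10. This is by the limma test of the difference between those differences, adjusted over all 13631 genes. Against non-phagocytic macrophages the difference with IFN-γ minus that with IL-10 was -1.04 for Tyk2, -1.38 for Stat2 and -0.66 for Stat3, 3 of 9 genes where 9.44% of all genes were called. Against Tconv-phagocytic macrophages it was -1.04 for Tyk2, -1.63 for Stat2, -0.76 for Stat3 and 0.44 for Il10rb, 4 of 9 where 13.6% were called; without scaling factors the share of higher calls over all genes moved there from 42.8% to 19.2%. All 7 held under each alternative run and without any 1 library. Both sets share the Treg-phagocytic libraries. For Tconv-phagocytic against non-phagocytic libraries the test between the cytokines was called for none of the 9 genes (0 of 9). There limma called 229 of all genes, 1.68%, and 1657 had an unadjusted p under 0.05. Without scaling factors the share of higher calls moved there from 12.2% to 64.5%. Ifngr1 did not pass in the second comparison, but passed in the joint fit of all 28 libraries (0.25, adjusted p = 0.0242), with variance weights per group (0.25, 0.0435) and without IFN-γ Tconv-phagocytic BV421-1 (0.28, adjusted p = 0.039) or Treg-phagocytic Ax647-1 (0.31, 0.00617). Il10rb passed in the first without IFN-γ non-phagocytic replicate 1 (0.27, 0.0274) and Jak2 without Treg-phagocytic Ax647-2 (-0.46, 0.0303). No library stood far from the other 3 of its group by Dixon's test in any of 63 sets of 4 values.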

How the results depend on the processing

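The settings named under a gene are not always all of those under which its call changed. Median-of-ratios scaling changed no call, and neither did the dye as a covariate. Without scaling factors 8 genes in place of 3 were called between IFN-γ and IL-10 Treg-phagocytic libraries, and 8 in place of 1 between IFN-γ Treg-phagocytic libraries and M0. There 4 differences changed sign: Il10ra in IFN-γ non-phagocytic libraries against M0 (-0.27), and Ifngr1 (-0.30), Ifngr2 (-0.25) and Il10ra (-0.23) in IFN-γ Treg-phagocytic libraries against M0. For this last comparison the count of 1 became 2 with a pseudocount of 0.1, 2 without the filter, 4 in the joint fit of all 28 libraries, 3 with variance weights and 2 with the GC and length correction, and ran from 1 to 3 with 1 library left out. The GC and length correction left 5 of 8 genes called between IFN-γ and IL-10 Tconv-phagocytic libraries. A joint fit of all 28 libraries gave 4 in place of 7 for IL-10 non-phagocytic libraries against M0 and, against IL-10 non-phagocytic libraries, 0 in place of 2 for Treg uptake and 0 in place of 3 for Tconv uptake; the last ran from 1 to 2 with 1 library left out. The cause was not tested. Same-numbered libraries did not deviate together (correlations -0.0668 to 0.0851, none above 0.1), so the numbers are not taken as pairs; with the replicate block 4 in place of 7 genes were called for IL-10 non-phagocytic libraries against M0 and 0 in place of 3 for Tconv uptake with IL-10. With depth unknown, no floor or counting interval can be given.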
